A study of Mus musculus with 24 samples.

Results

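The first minutes of RNA labelling were compared between mouse embryonic stem cells that carry Alkbh5 del-cIDR and wild-type (WT) cells of the same E14TG2a line. The comparison used the libraries of both genotypes at 10 and 20 min of labelling, 8 of the 24 libraries of the series, and asked for each gene and repeat how the change between 10 and 20 min in del-cIDR differed from that in WT. The 4 groups, with 2 libraries each, were del-cIDR at 10 min, WT at 10 min, del-cIDR at 20 min and WT at 20 min. Per the labels, all cells grew in serum with LIF, the MEK inhibitor PD0325901 and the GSK3 inhibitor CHIR99021, and took up EU at 1 mM. The remaining libraries, of an Alkbh5 knockout (KO) and of 40 and 60 min, were used only for context. The labels name 1 line for each genotype as far as they tell, give no boundaries for the deletion, and describe replicates that were at most separate dishes. The p-values below therefore measure the spread between these samples, which may be technical and, for repeat families, was pooled over families. Of 56941 genes listed, 44971 had a deposited value other than 0 and 20012 passed a filter on low values (a mean level of at least 10 and reads in at least 4 of the 8 libraries). Of 1613852 repeat loci with reads in these libraries, 187424 passed the same filter.

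ALKBH5 is an enzyme that removes the methyl group from N6-methyladenosine (m6A), a mark that is placed on RNA while it is transcribed and that readers in nucleus and cytoplasm bind. The cIDR is an intrinsically disordered region of the protein, a stretch without a fixed fold outside the catalytic domain. EU (5-ethynyl uridine) enters RNA in place of uridine during transcription, so RNA captured after a short pulse is RNA made during that pulse, and introns and unstable transcripts are well represented in it.

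The libraries held 3133126 to 16003650 reads over genes and 8737 to 23382 reads of the EU-labelled Drosophila RNA that had been added in equal amount to every sample. The del-cIDR libraries of 10 min were among the shallowest, with 4000675 and 3133126 gene reads, and the spread between both libraries of a group was widest there, with an SD of the log2 difference over genes of 0.64, against 0.54 in WT at 10 min, 0.33 in del-cIDR at 20 min and 0.41 in WT at 20 min. Reads of every library were brought to the same spike-in total to give levels, and a relative level is the level plus 1 as a multiple of that of the library's median gene. The 6 stem cell markers Pou5f1, Sox2, Nanog, Esrrb, Zfp42 and Klf4 summed to relative levels of 619 to 723 in del-cIDR and 760 to 803 in WT. Markers of extraembryonic endoderm summed to 3.19 to 3.77 in del-cIDR and 4.50 to 5.84 in WT. The lower del-cIDR sum came from Dab2, with means at 10 and 20 min of 0.918 and 1.22 in del-cIDR and 3.57 and 3.26 in WT. The other endoderm markers, Gata4, Gata6, Sox17 and Sox7, had higher means in del-cIDR at 10 min and went both ways at 20 min. Markers of trophoblast summed to 5.54 to 8.31 in del-cIDR and 5.77 to 7.4 in WT. Markers of fibroblasts summed to 1.26 to 2.18 in del-cIDR and 0.951 to 1.83 in WT, and those of neural cells, mainly Nes, to 34.9 to 37.9 in del-cIDR and 42.9 to 50.2 in WT. Among the trophoblast and fibroblast markers, Cdx2, Col1a2 and Col3a1 did not exceed 0.156 in any library. The others reached higher values, up to 4.7 for Gata3, 2.06 for Eomes, 1.39 for Elf5, 0.481 for Hand1, 1.03 for Col1a1 and 1.0 for Thy1. The part of these marker differences in the results below was not tested.

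Captured RNA increased more between 10 and 20 min in del-cIDR than in WT. Reads over genes per spike-in read were 250.1 and 260.6 in del-cIDR at 10 min, against 438.3 and 333.7 in WT at 10 min. At 20 min they were 922.7 and 1453 in del-cIDR, against 741.5 and 680.7 in WT. Both del-cIDR libraries thus lay below both WT libraries at 10 min and above them at 20 min. Means were 255 ± 7.41 in del-cIDR and 386 ± 74.0 in WT at 10 min, and 1188 ± 375 in del-cIDR and 711 ± 43.0 in WT at 20 min (SD, n = 2 each), a 4.65-fold increase in del-cIDR and a 1.84-fold increase in WT. The difference between these increases was 1.29 on the log2 scale (exact two-sided permutation test of genotype within labelling time over 36 arrangements, p = 0.0556, the smallest the design allows, adjusted p = 0.0556 over genes and repeats). Reads over repeats gave 268.1 and 303.9 in del-cIDR and 513.3 and 391.8 in WT at 10 min, and 1029 and 1625 in del-cIDR and 779.6 and 759.8 in WT at 20 min. Their difference was 1.40 (exact permutation p = 0.0556, adjusted 0.0556). The libraries of a group are called A and B here, A being the one with more spike-in reads. Without del-cIDR library A of 20 min the difference over genes was 1.62, and without library B it was 0.96.

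**Figure D1:**
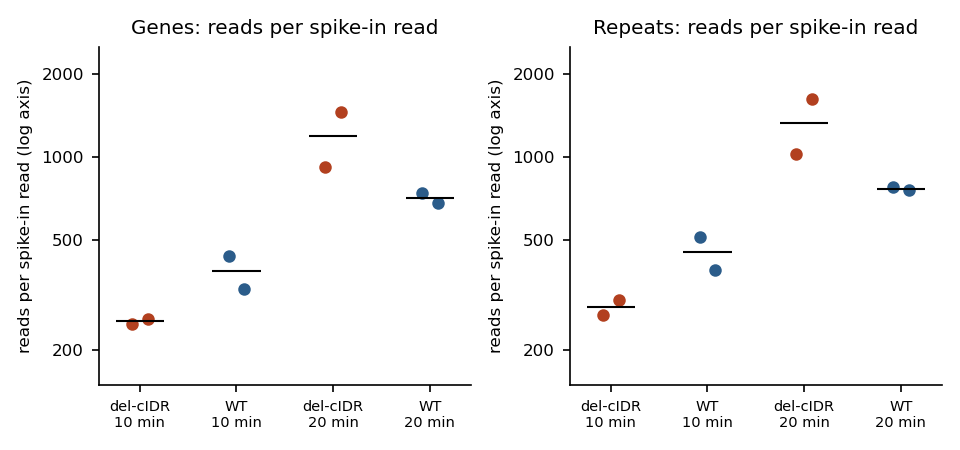
Reads over genes (left) and over repeats (right) per spike-in read, on a log axis, in the 2 libraries of each group (points) with their mean (line). The del-cIDR libraries lie below WT at 10 min and above WT at 20 min.

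Because almost the whole transcriptome moved with this total, genes were compared after each library was set to its median gene. In the authors' deposited ratios of 20 to 10 min the median was 2.25 in del-cIDR and 0.92 in WT on the log2 scale, and 97.1% of tested genes had the higher value in del-cIDR. The early difference of a gene, as used from here on, is its log2 change between 10 and 20 min in del-cIDR minus that in WT, relative to the median gene. Without that step the median of tested genes was 1.28, and with it 0.13, since the median was taken over the 31118 genes with a value in every deposited column and many of these did not pass the filter. The deposited values, centred the same way, ran from −1.09 at the 5th percentile to 0.99 at the 95th, with 989 tested genes at or above 1 and 1215 at or below −1. Across tested genes, which are not independent replicates, they had a Pearson r of 0.976 with the fitted early difference.

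Relative to the median gene, 301 genes had a higher and 45 a lower early difference at an adjusted p below 0.05 (limma, Benjamini-Hochberg over 20012 genes), 1.5% and 0.225% of those tested. The 301 had a median early difference of 0.87. At 10 min they lay below WT, with a median of −0.50, and at 20 min above WT, with a median of 0.36. Their median change within del-cIDR was 0.66, against −0.22 within WT. The 45 went the other way, with a median early difference of −1.02 made up of 0.50 at 10 min and −0.57 at 20 min. By 40 min the medians of both sets were close to WT, at −0.01 for the 301 and −0.10 for the 45, and at 60 min they were 0.04 and 0.03. In all 346 genes every pair of del-cIDR libraries gave a change above, or below, every pair of WT libraries, as also seen upward in 24.9% and downward in 11.6% of all tested genes.

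Single times and single genotypes were tested in the same fit. At 10 min 397 genes were higher and 1414 lower in del-cIDR than in WT (1.98% and 7.07%), and at 20 min 343 were higher and 292 lower (1.71% and 1.46%). Which time had more calls depended on the setting, since voom called 234 higher and 893 lower at 10 min and 1487 higher and 1232 lower at 20 min, and the spike-in scale 18 and 970 at 10 min and 3957 and 28 at 20 min. Within del-cIDR 1310 genes increased and 325 decreased between 10 and 20 min (6.55% and 1.62%). That balance also turned with the setting, with 733 and 620 under quantile normalization, 553 and 742 when centred on protein-coding genes of at least 10 kb, and 1996 and 5399 without the filter on low values. Within WT no gene increased and 2 decreased (0.00% and 0.00999%), although 2055 reached an unadjusted p below 0.05 and limma with precision weights (voom) called 9 and 46. Of the 301 genes, 193 were also called lower in del-cIDR at 10 min, 72 were called higher at 20 min, 51 were called at neither, and 266 had a called increase within del-cIDR. Of the 45, 19 were called higher at 10 min, 19 lower at 20 min, and 31 had a called decrease within del-cIDR. These counts come from the same libraries as the early difference and describe how it is made up, not a separate test. KO, set against the same WT libraries, had no called early difference (0 genes by limma over all 24 libraries, 1922 at an unadjusted p below 0.05). In that fit of 24 libraries the early difference of del-cIDR from WT had 2639 higher and 740 lower calls. The early difference of del-cIDR from KO had 1638 higher and 689 lower calls.

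The gene calls rested on few libraries. They fell to 0 without either del-cIDR library of 20 min, without either WT library of 10 min or without WT library B of 20 min, and to 106 without WT library A of 20 min, while they numbered 1575 without del-cIDR library A of 10 min and 738 without B (limma). Between 2831 and 5038 genes had an unadjusted p below 0.05 in these fits. Calls within del-cIDR were 80 higher and 36 lower without its library A of 20 min and 76 and 13 without B. Calls at 20 min were 9 and 16 without del-cIDR library A, 10 and 19 without B, 114 and 47 without WT library A and 15 and 22 without B, and those at 10 min were 185 and 211 without WT library A and 96 and 336 without B. The share of higher calls also depended on the centring. It was 87.0% as reported, 77.0% (600 higher and 179 lower) with the median of tested genes, 54.3% (229 and 193) with quantile normalization and 50.6% (216 and 211) when centred on protein-coding genes of at least 10 kb, a setting chosen after seeing the data.

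Alkbh5 itself was not called in the early difference. Its relative levels were 16.1 and 18.6 at 10 min and 24.6 and 26.2 at 20 min in del-cIDR, against 31.7 and 25.9 at 10 min and 29.3 and 26.2 at 20 min in WT. The del-cIDR libraries lay below WT at 10 min and at or below WT at 20 min, giving differences of −0.72 (limma, adjusted p = 0.00764) and −0.12 (adjusted p = 0.662). The early difference was 0.60 ± 0.18 (SE, limma, adjusted p = 0.0886). Alkbh5 lay 0.49 below WT at both 40 and 60 min. Reads summed over a whole gene do not check a deletion inside it.

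The largest higher early differences among well-covered genes belonged to genes of varied roles. Zfp551, a zinc finger gene, had relative levels of 1.45 and 1.23 at 10 min and 3.42 and 3.70 at 20 min in del-cIDR, against 2.13 and 2.50 at 10 min and 1.74 and 1.93 at 20 min in WT. Abhd10, which encodes a mitochondrial thioesterase, had 3.27 and 4.06 and then 8.81 and 7.55 in del-cIDR, against 6.99 and 7.22 and then 5.71 and 4.73 in WT. In both genes the del-cIDR libraries lay below WT at 10 min and above WT at 20 min, with early differences of 1.74 ± 0.35 (SE, limma, adjusted p = 0.0368) and 1.61 ± 0.26 (adjusted p = 0.0262). Tmem106b, a lysosomal membrane protein gene, had 5.80 and 4.98 and then 10.4 and 9.12 in del-cIDR, against 7.69 and 8 and then 5.4 and 4.1 in WT. Hccs, whose product attaches heme to cytochrome c, had 5.22 and 5.06 and then 12 and 10.7 in del-cIDR, against 8.42 and 7 and then 6.04 and 5.47 in WT. In both genes the libraries of 20 min lay above those of 10 min in del-cIDR and below them in WT, with early differences of 1.59 ± 0.25 and 1.56 ± 0.23. Pla2g4c, a phospholipase A2 gene, showed another course. It had 1.52 and 1.23 and then 4.02 and 4.37 in del-cIDR, against 4.78 and 4.07 and then 4.70 and 4.23 in WT, so that it started lower in del-cIDR (−1.69, limma, adjusted p = 0.00152) and reached the WT range at 20 min, an early difference of 1.60 ± 0.30.

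The other genes among the 12 highest had early differences between 1.32 and 1.65. They were Dsel (an epimerase of dermatan sulfate) at 1.65 ± 0.34, Mrpl32 (a protein of the mitochondrial ribosome) at 1.54 ± 0.33, Sntg1 (a syntrophin) at 1.48 ± 0.30, Mterf3 (a mitochondrial regulator of transcription and ribosome assembly) at 1.40 ± 0.20, and the zinc finger genes Zfp800 at 1.33 ± 0.29 and Zfp386 at 1.32 ± 0.16. ENSMUSG00000120144, an ID with no name in the annotation used, stood at 1.45 ± 0.32. Zfp386 had the smallest adjusted p of this group (0.0219) and a tight pattern, with 12.5 and 11.4 and then 26.5 and 26.7 in del-cIDR, against 23.2 and 21.2 and then 20.6 and 19.1 in WT. Hccs alone among the 12 still differed from WT at 40 min in the upward direction (0.63, limma over 24 libraries, adjusted p = 0.00326), and Pla2g4c was then lower (−0.56, adjusted p = 0.0256). Hccs lies on the X chromosome, whose tested genes had a median del-cIDR minus WT difference of 0.235 at 40 min.

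Genes with the lowest early differences mirrored this course. Nckap5l, whose product binds microtubules, had relative levels of 4.57 and 4.75 at 10 min and 2.76 and 3.05 at 20 min in del-cIDR, against 2.86 and 2.29 at 10 min and 5.4 and 4.7 at 20 min in WT. Tmsb10, which encodes the actin-binding peptide thymosin beta 10, had 66.1 and 49.3 and then 31.1 and 26.7 in del-cIDR, against 36 and 46 and then 48.5 and 52.7 in WT. In both genes del-cIDR libraries lay above WT at 10 min and below WT at 20 min, with early differences of −1.66 ± 0.29 (SE, limma, adjusted p = 0.0292) and −1.30 ± 0.21 (adjusted p = 0.0262). Hist1h2bq, a replication-dependent histone H2B gene whose reads are uncertain because near-identical copies exist, had 9.70 and 8.58 and then 3.34 and 3.64 in del-cIDR, against 4.83 and 7.57 and then 5.69 and 7.10 in WT. Its early difference was −1.46 ± 0.31. Arhgef19 stood at −1.59 ± 0.33, Mvb12a, a subunit of the ESCRT-I sorting complex, at −1.21 ± 0.27, and Chd5, a chromatin remodeller, at −1.18 ± 0.25. Lmtk3, a membrane kinase gene, followed at −1.15 ± 0.21, Adgrb2, an adhesion receptor gene, at −1.11 ± 0.24, and the imprinted retrotransposon-derived gene Rtl1 at −1.09 ± 0.23. ENSMUSG00000119895 and ENSMUSG00002076809, which have no name in the annotation used, stood at −1.82 ± 0.38 and −1.66 ± 0.33. On the spike-in scale, where the median gene lies at 1.28, Lmtk3, Adgrb2 and Rtl1 had values just above 0 (0.01, 0.05 and 0.06). On that scale 9550 genes were called higher and 1 lower. For all but at most 1 of the 45 genes, lower thus holds relative to the median gene, with no lower call on the spike-in scale.

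**Figure D2:**
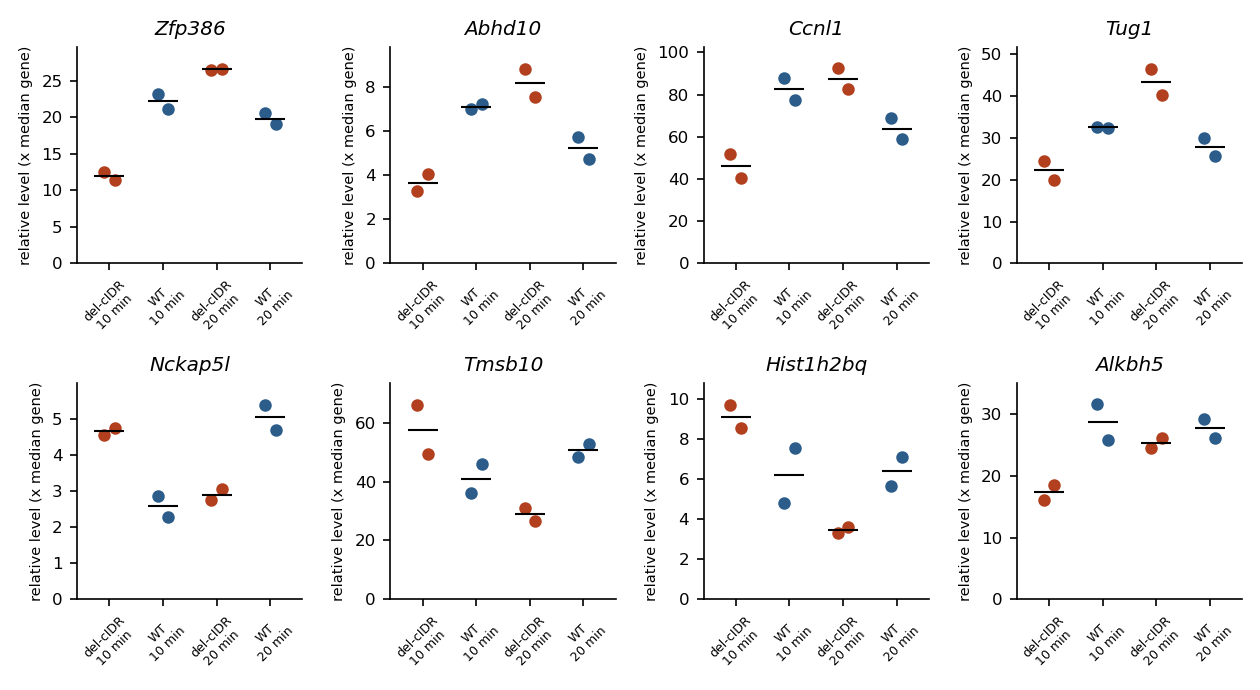
Relative levels (multiples of the library's median gene) of 8 genes in the 2 libraries of each group (points) with their mean (line), del-cIDR in red and WT in blue. Zfp386, Abhd10, Ccnl1 and Tug1 lie lower in del-cIDR at 10 min and higher at 20 min, Nckap5l, Tmsb10 and Hist1h2bq show the reverse, and Alkbh5 was not called.

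Genes that process RNA were among those called. Of 26 genes of SR splicing proteins, CLK kinases and cyclin L, 6 had a higher early difference and 0 a lower one (23.1%, beside 1.5% of all tested genes), with a list median of 0.38 relative to the median gene, beside 0.13 over all tested genes. The 301 genes called higher had a median level of 705, against 95.1 in genes not called. These 26 genes had median relative levels of 101 and 89.1 in del-cIDR at 10 min, beside 3.66 and 3.45 over all tested genes. Those of the Integrator and m6A lists below were 24.4 and 21.8, and 32.2 and 30.3. At a mean level of at least 50, 669 of 12819 genes were higher. The 1.5% thus includes many weaker genes, and the part of level in these shares was not tested. Ccnl1, a cyclin that partners kinases acting in splicing, had 51.8 and 40.5 and then 92.4 and 82.9 in del-cIDR, against 87.7 and 77.5 and then 68.9 and 58.9 in WT. Clk4, a kinase that phosphorylates SR proteins, had 18 and 17.5 and then 38.2 and 34.9 in del-cIDR, against 28 and 24.8 and then 26.4 and 25.2 in WT. Both lay below WT at 10 min and above WT at 20 min, with early differences of 1.31 ± 0.18 (SE, limma, adjusted p = 0.0259) and 1.07 ± 0.15 (adjusted p = 0.0259). Srsf10, a splicing regulator, stood at 0.82 ± 0.15 and Clk1 at 0.66 ± 0.13. At 10 min 14 of the 26 genes were lower in del-cIDR and 1 higher (beside 7.07% and 1.98% of all tested genes), and at 20 min 1 was higher and 0 lower, and the list median was −0.36 at 10 min and 0.06 at 20 min.

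Of 32 genes of the Integrator complex and of 3′ end processing 4 were higher and 0 lower (12.5%), with a median of 0.31. Ints6, a subunit of Integrator, which cleaves nascent transcripts, had 35.1 and 30.7 and then 55.3 and 50.3 in del-cIDR, against 63.9 and 52.7 and then 52.3 and 42.7 in WT, an early difference of 0.98 ± 0.18. Pcf11, a termination factor, stood at 0.74 ± 0.13, the cleavage factor gene Cpsf7 at 0.73 ± 0.15 and the Integrator subunit gene Ints13 at 0.72 ± 0.15. Of 28 genes of the nuclear exosome and RNA decay 1 was higher and 0 lower (3.57%), with a median of 0.37. The called gene was Zfc3h1, which targets polyadenylated nuclear RNA to the exosome, at 0.59 ± 0.12. Of 44 RNA polymerase II and elongation genes 1 was higher and 0 lower (2.27%, near the 1.5% of all tested genes), with a median of 0.06, below the 0.13 of all tested genes, and the called gene was the polymerase subunit gene Polr2b at 0.60 ± 0.13.

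Among genes of the m6A pathway, readers and a writer subunit were called. Of 22 genes that write, erase or read the mark 3 were higher and 0 lower (13.6%), with a median of 0.47, and 7 were lower in del-cIDR at 10 min, beside 7.07% of all tested genes. Ythdf3, a cytoplasmic m6A reader, had 29.4 and 24.6 and then 39.9 and 39.4 in del-cIDR, against 39.8 and 32.0 and then 31.8 and 26.2 in WT. Rbm15, a subunit of the m6A methyltransferase complex, had 57.1 and 50.9 and then 74.3 and 79.8 in del-cIDR, against 62.9 and 61.0 and then 59.7 and 51.2 in WT. The del-cIDR libraries of both genes lay above WT at 20 min, with early differences of 0.87 ± 0.19 (SE, limma, adjusted p = 0.0443) and 0.68 ± 0.15 (adjusted p = 0.0417). Hnrnpa2b1, an abundant nuclear RNA-binding protein that has been described as a reader, had 440 and 424 and then 528 and 508 in del-cIDR, against 648 and 627 and then 528 and 529 in WT, so that it lay below WT at 10 min and at or just below WT at 20 min, an early difference of 0.53 ± 0.10.

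Of 339 genes named Zfp, mostly zinc finger transcription factors, 25 were higher and 1 was lower (7.37% and 0.295%), with a median of 0.39 relative to the median gene. The median relative level of these genes was 6.58 and 6.59 at 10 min and 7.90 and 7.99 at 20 min in del-cIDR, against 7.31 and 6.86 at 10 min and 6.97 and 6.67 at 20 min in WT. The median was thus lowest in del-cIDR at 10 min and highest in del-cIDR at 20 min. At 10 min 42 were lower and 4 higher in del-cIDR, beside 7.07% and 1.98% of all tested genes, and at 20 min 16 were higher and 2 lower, beside 1.71% and 1.46%. Zfp579, the lower one, is a weakly read gene with 2.04 and 2.07 and then 0.815 and 0.895 in del-cIDR, against 1.27 and 1.21 and then 2.07 and 2.17 in WT, an early difference of −2.04 ± 0.40.

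Single members of other lists were called. A share that rests on 1 called member, beside 1.5% called higher among all tested genes, is no result about its list. Btg1, an antiproliferative gene listed with the immediate early genes, had 38.2 and 36.9 and then 59.3 and 55.5 in del-cIDR, against 36.4 and 35.4 and then 32.1 and 26.7 in WT. It did not differ by the test at 10 min (0.07, limma, adjusted p = 0.741) and was higher in del-cIDR at 20 min (0.97, adjusted p = 0.00128) and at 40 min (0.75, limma over 24 libraries, adjusted p = 2.54e-06), an early difference of 0.91 ± 0.15. The remaining 29 tested immediate early genes were not called, and the list median was −0.43, against 0.73 on the spike-in scale. The p53 targets Trp53inp1 and Ccng1 stood at 0.84 ± 0.14 and 0.74 ± 0.14 (2 of 29 higher, 6.90%), the amino acid transporter gene Slc38a2, an ATF4 target, at 0.82 ± 0.12 (1 of 33, 3.03%), and the histone H3 lysine demethylase gene Kdm3a at 0.68 ± 0.12 (1 of 44, 2.27%). Among 21 nuclear long noncoding RNAs 2 were higher (9.52%). Tug1 had 24.6 and 19.9 and then 46.6 and 40.4 in del-cIDR, against 32.6 and 32.5 and then 29.9 and 25.7 in WT, an early difference of 1.21 ± 0.18, and Kcnq1ot1, an imprinted antisense transcript, stood at 0.58 ± 0.13. Both are annotated as antisense genes, whose reads cannot be told from those of their partners where counting ignores strand. Impact, an imprinted regulator of translation, stood at 1.01 ± 0.18 (1 of 25 imprinted and germline genes, 4%).

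Ribosomal protein and replication-dependent histone genes had list medians below that of all tested genes, with 1 histone gene called. None of 89 cytoplasmic ribosomal protein genes was called by limma (20 lower and 1 higher at an unadjusted p below 0.05, 7 lower and 0 higher with voom), and the list median was −0.36 relative to the median gene, against 0.79 on the spike-in scale. Their median relative level was 91.7 and 67.1 at 10 min and 79.2 and 58.6 at 20 min in del-cIDR, against 70.7 and 76.1 at 10 min and 94.5 and 68.9 at 20 min in WT. These groups overlapped at both times. Rpl4 and Rpl5, proteins of the large subunit, had early differences of −0.25 (limma, adjusted p = 0.553) and −0.04 (adjusted p = 0.938). Of 60 replication-dependent histone genes 1 was lower, the uncertain Hist1h2bq, and 0 were higher (1.67%), with a median of −0.34, against 0.82 on the spike-in scale. Their median relative level was 4.11 and 2.95 at 10 min and 2.25 and 2.10 at 20 min in del-cIDR, against 3.79 and 4.21 and then 2.79 and 3.10 in WT. At 20 min both del-cIDR libraries lay below both WT libraries, 6 histone genes were called lower and 0 higher, beside 1.46% and 1.71% of all tested genes, and 17 had a called decrease within del-cIDR, beside 1.62% of all tested genes.

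No member was called by limma in 17 of the 30 lists, among them the ribosomal protein genes and the 2-cell-like genes described further on. Their medians relative to the median gene ran from −0.36 for the ribosomal protein genes to 0.24 for the mitochondrially encoded genes. Naive pluripotency genes had a median of −0.02 (0 of 30 called, 4 higher and 4 lower at an unadjusted p below 0.05, 2 and 1 with voom). Tet1, which oxidises methylated cytosine, had an early difference of 0.05 ± 0.11 (limma, adjusted p = 0.851), and Zfp42, a marker of naive cells, one of 0.30 ± 0.12 (adjusted p = 0.161). Cell cycle genes had a median of 0.17 (0 of 31 called, 7 and 3 at an unadjusted p below 0.05, 3 and 0 with voom), with Top2a at 0.35 and Mki67 at 0.43. Cholesterol synthesis genes had one of −0.03, with Srebf2 at −0.26 and Msmo1 at 0.56, glycolysis genes one of −0.19, with Pkm at −0.20 and Slc2a3 at 0.22, and Nodal and BMP response genes one of 0.00, with Tdgf1 at −0.43 and Smad7 at −0.15. Formative and primed genes stood at 0.03 (Etv5 0.06, Dnmt3a −0.06), MAPK feedback and Ets targets at 0.08 (Spred2 −0.05), Wnt targets at 0.07 (Tcf7 −0.35, Znrf3 −0.11), small nucleolar RNA genes at 0.15 (Snord17 0.43, Snord43 −0.27) and the single tested spliceosomal RNA gene, Rnu12, at −0.09. Markers of extraembryonic endoderm stood at −0.02 (Lamc1 0.00, Nid1 0.01), of trophoblast at 0.06 (Ets2 0.33, Tead4 0.02), of fibroblasts at −0.19 (Vim −0.19, Pdgfrb 0.14) and of neural cells at −0.04 (Nes 0.14, Ncam1 −0.10). The mitochondrially encoded mt-Nd5 had 0.24 and mt-Rnr2 −0.07. On the spike-in scale the medians of all 30 lists were above 0. With quantile normalization, where the median of all tested genes was 0.02, list medians were 0.25 for SR, CLK and cyclin L genes, 0.27 for m6A genes, 0.16 for Integrator genes, 0.23 for exosome genes and 0.28 for Zfp genes, while that of polymerase II genes was −0.08.

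**Figure D3:**
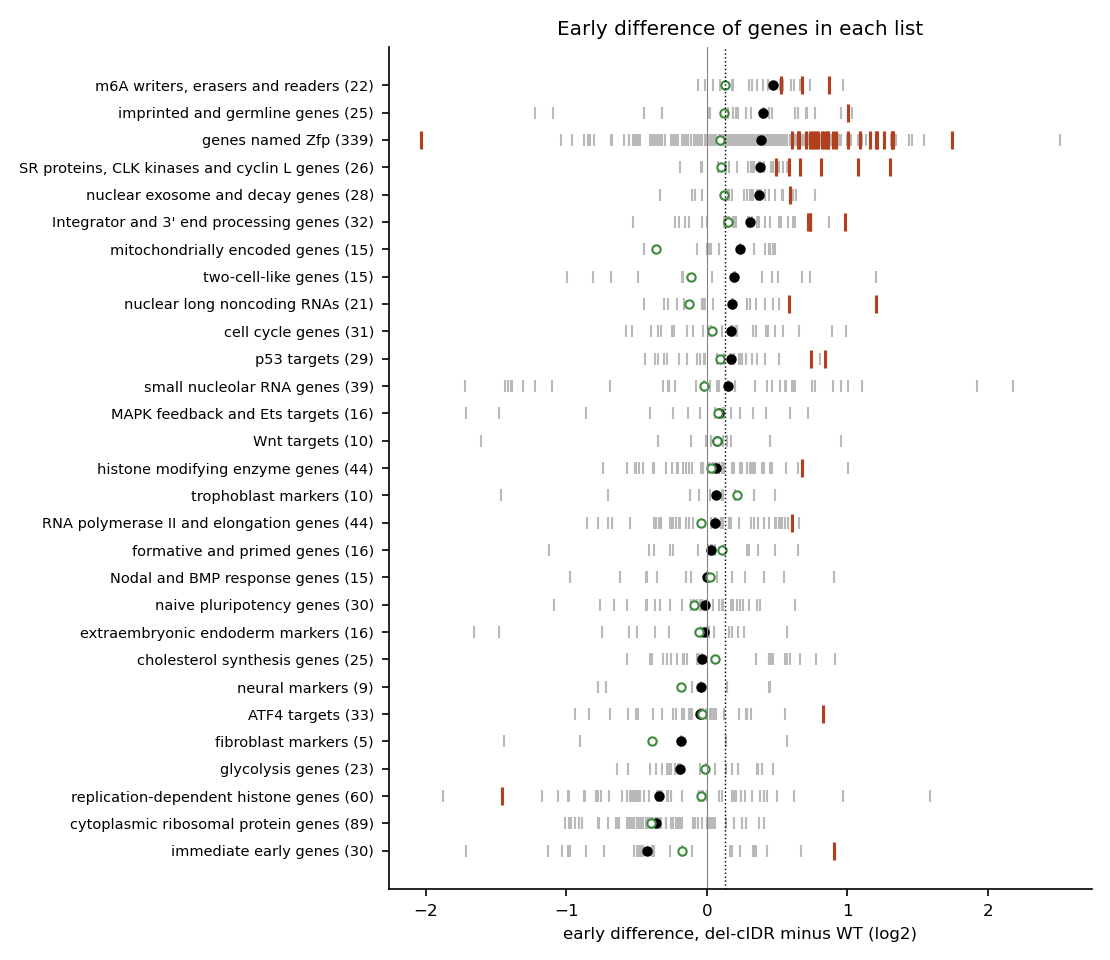
Early difference (log2, relative to the median gene) of the tested members of 29 gene lists with more than 1 tested member, numbers of members in parentheses. Grey ticks are genes not called, red ticks are called genes, black points are list medians, open green points the medians after removal of each library's GC trend, and the dotted line is the median of all tested genes, 0.13.

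The early difference followed the base composition of the transcripts. Genes were ranked by the share of G and C in their longest annotated transcript, known for 96.4% of tested genes. They were cut into 5 groups of equal size. In the group with the lowest GC (27.3 to 43.2%) the median early difference was 0.48, with 205 genes higher and 0 lower (5.31% and 0.00%). The next groups had medians of 0.30, 0.13 and −0.05, and in the group with the highest GC (54.8 to 78.3%) the median was −0.30, with 2 genes higher and 33 lower (0.0518% and 0.855%). Leaving out 1 library at a time kept the first of these medians between 0.42 and 0.57 and the last between −0.40 and −0.22. The 301 genes with a higher early difference had a median GC of 41.3%, the 45 with a lower one 57.4% and the genes not called 49.0%. Across the 19301 genes with known GC the Pearson r of the early difference with GC was −0.44, given as a description since genes of 1 library share its preparation.

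To show the contrast, the central 120 bases of the coding sequence are printed for 2 genes from each end of the list, in lower case with every G and C in capitals, from GENCODE M21 (build GRCm38). Tmem106b (chromosome 6, bases 352 to 471 of 825) and Zfp800 (chromosome 6, bases 934 to 1053 of 1986) had higher early differences, and their windows hold 35.0% and 41.7% GC. Lmtk3 (chromosome 7, bases 2116 to 2235 of 4350) and Adgrb2 (chromosome 4, bases 2305 to 2424 of 4731) had lower ones, and their windows hold 70.8% and 72.5% GC. Over the whole coding sequence the contrast is smaller, with 41.0% GC in Tmem106b and 40.0% in Zfp800, and 67.7% in Lmtk3 and 62.0% in Adgrb2.
Tmem106b: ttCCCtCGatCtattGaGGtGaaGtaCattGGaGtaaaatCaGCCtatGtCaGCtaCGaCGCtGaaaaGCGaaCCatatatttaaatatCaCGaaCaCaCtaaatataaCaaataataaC
Zfp800: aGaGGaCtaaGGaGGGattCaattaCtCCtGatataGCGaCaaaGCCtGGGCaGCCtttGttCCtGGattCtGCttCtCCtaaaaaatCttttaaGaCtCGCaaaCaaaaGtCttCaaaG
Lmtk3: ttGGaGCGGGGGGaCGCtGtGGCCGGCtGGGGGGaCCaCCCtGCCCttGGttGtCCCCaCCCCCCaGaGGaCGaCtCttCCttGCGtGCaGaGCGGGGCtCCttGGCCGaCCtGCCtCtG
Adgrb2: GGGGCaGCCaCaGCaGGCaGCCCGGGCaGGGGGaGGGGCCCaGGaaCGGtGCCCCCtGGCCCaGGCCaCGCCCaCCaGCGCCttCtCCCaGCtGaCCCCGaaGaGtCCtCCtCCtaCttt

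The GC pattern was present at both times with opposite sign and in both genotypes. From the lowest to the highest GC group the del-cIDR minus WT median ran from −0.26 to 0.14 at 10 min and from 0.23 to −0.16 at 20 min. Within libraries, the median of the lowest GC group minus that of the highest was −0.25 and −0.19 in del-cIDR at 10 min, against 0.29 and 0.08 in WT at 10 min, and 0.22 and 0.19 in del-cIDR at 20 min, against −0.16 and −0.20 in WT at 20 min. At 40 and 60 min all 8 libraries of both genotypes lay between 0.29 and 0.52. The pattern did not depend on the span of the gene, since low-GC genes had medians of 0.39, 0.45 and 0.42 among genes of short, middle and long span and high-GC genes −0.26, −0.21 and −0.19. It was also seen among protein-coding genes alone, at 0.49 in the lowest and −0.31 in the highest group. The early difference of KO from WT, which shares the WT libraries, had a weaker trend, from 0.13 to −0.05.

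When the GC trend of each library was removed with a spline, a setting chosen after seeing the data, no gene was called in the early difference (limma, 2185 of 19301 at an unadjusted p below 0.05). At 10 min 463 genes were then higher and 784 lower, at 20 min 226 and 324, and within del-cIDR 408 increased and 317 decreased. List medians moved toward 0, from 0.38 to 0.10 for SR, CLK and cyclin L genes, from 0.47 to 0.13 for m6A genes, from 0.39 to 0.09 for Zfp genes, from 0.31 to 0.15 for Integrator genes and from −0.34 to −0.04 for histone genes. The median of ribosomal protein genes did not, at −0.40. Hist1h2bq, with 47.1% GC, was at −1.64 and Zfp551, with 48.8% GC, at 1.62, both close to their values without the step. Whether the base composition bears on RNA synthesis or on the preparation of the libraries was not tested.

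**Figure D4:**
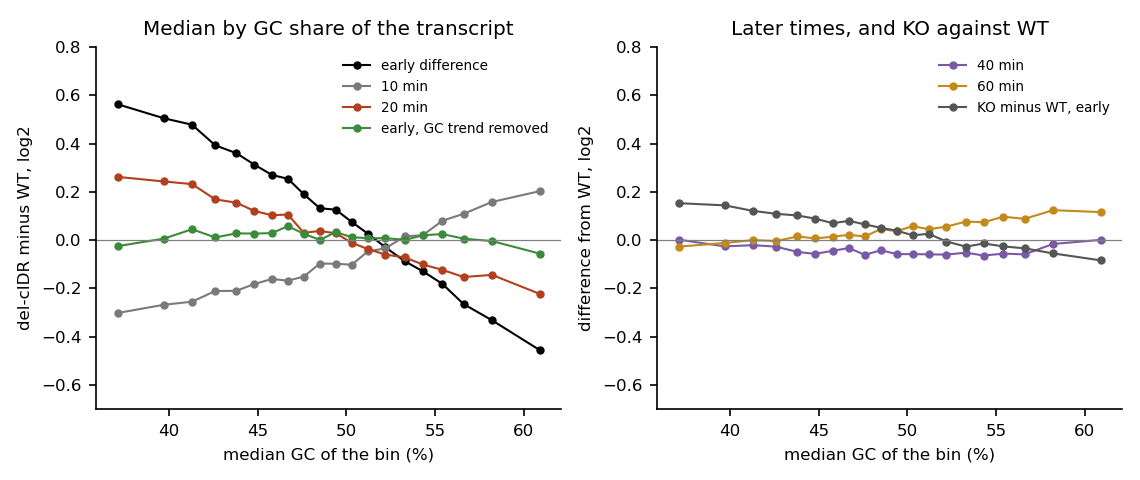
Median log2 differences in 20 equal bins of genes by GC share of the longest transcript (x axis, median GC of the bin in percent). Left, the early difference runs from 0.56 to −0.46 and is made up of opposite trends at 10 and 20 min, and after removal of each library's GC trend it lies between −0.06 and 0.06. Right, the del-cIDR minus WT difference at 40 and 60 min and the early difference of KO from WT are flatter.

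Classes of transcripts differed in the same sense. Genes annotated as TEC, loci to be experimentally checked, had a median early difference of 0.39 and sense-intronic transcripts also 0.39, with median GC of 42.8% and 43.4%, and their medians were 0.00 and 0.06 after the GC trend was removed. Protein-coding genes had a median of 0.10 and processed pseudogenes one of 0.07. Small nucleolar RNA genes as annotated had 0.49, with 0.26 left after removal. By chromosome the medians ran from −0.03 on chromosome 11, whose genes have a median GC of 51.9%, to 0.30 on chromosome 3. Genes of the X chromosome had a median of 0.23 and, unlike those of the other chromosomes, lay above WT at 10 min too, at 0.18.

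The pseudogene Rpl10a-ps1, picked after its value was seen, shows the limit that copies set. It had relative levels of 30.7 and 20.8 and then 9.28 and 7.91 in del-cIDR, against 9.61 and 17.7 and then 15.6 and 15.4 in WT, an early difference of −1.81 ± 0.34 (SE, limma, adjusted p = 0.0316). Its parent Rpl10a, a gene of the large ribosomal subunit, had 91.3 and 69.8 and then 79.2 and 69.1 in del-cIDR, against 71.1 and 81.7 and then 105 and 95 in WT, an early difference of −0.50 ± 0.18 (adjusted p = 0.137). The coding bases of Rpl10a (chromosome 17) and the matching bases of Rpl10a-ps1 (chromosome 1) are identical at all 651 positions in GENCODE M21, so reads inside them cannot be told apart by sequence. Their shared first 120 bases follow.
Rpl10a and Rpl10a-ps1: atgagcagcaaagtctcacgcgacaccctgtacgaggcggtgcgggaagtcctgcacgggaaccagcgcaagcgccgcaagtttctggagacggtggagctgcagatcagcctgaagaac

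A separate and smaller set of genes differed at both times in the same direction and thus hardly in the early difference. It held 186 genes, 65 higher and 121 lower in del-cIDR (0.325% and 0.605% of tested genes), only 2 of which were also called in the early difference, and 15 genes differed in opposite directions. With the GC trend removed it held 269, of which 162 were shared. The following examples were chosen after their values were seen. Scml2, a Polycomb-group gene of the X chromosome, had relative levels of 12.9 and 14.6 and then 16.9 and 18 in del-cIDR, against 3.91 and 2.93 and then 2.58 and 1.90 in WT, which is 2.02 at 10 min and 2.98 at 20 min (limma, adjusted p = 0.000493 and 3.41e-05). Dll1, a Notch ligand gene, stood at 2.21 and 2.05. Zscan4e, a marker of the 2-cell-like state of stem cell cultures, had 2.30 and 2.23 and then 2.21 and 2.28 in del-cIDR, against 9.45 and 7.50 and then 7.81 and 6.83 in WT, which is −1.90 and −1.70, and its early difference was 0.19 ± 0.27 (limma, adjusted p = 0.727). Of 15 tested 2-cell-like genes 9 were lower at 10 min and 7 at 20 min, and the list's median early difference was 0.19 with none called (0 at an unadjusted p below 0.05, 0 with voom).

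Repeats were summed by class and family and set relative to the median gene. Of 58 families tested, 30 had a higher and 2 a lower early difference (51.7% and 3.45%, limma), with a median of 0.34 over all families. At 10 min 2 were higher and 38 lower (3.45% and 65.5%), and at 20 min 1 was higher and 0 lower (1.72% and 0.00%, 12 at an unadjusted p below 0.05). The SE of a family followed its level, not its own spread, and Low_complexity and LTR/ERVL, of like level, both had 0.077. Family p-values thus rest on a spread pooled over families and can be too small where the libraries of a family disagree. SINE/B4, a short rodent element, had relative levels of 22190 and 22700 and then 26940 and 27840 in del-cIDR, against 27990 and 26080 and then 25350 and 25440 in WT. LTR/ERVK, a class of endogenous retroviruses, had 20200 and 20700 and then 22720 and 22850 in del-cIDR, against 24290 and 23420 and then 21340 and 21440 in WT. In both families the del-cIDR libraries lay below WT at 10 min and above WT at 20 min, with early differences of 0.38 ± 0.07 (SE, limma, adjusted p = 7.94e-07) and 0.31 ± 0.07 (adjusted p = 3.65e-05). SINE/Alu stood at 0.36 ± 0.06, LTR/ERVL-MaLR at 0.36 ± 0.06, SINE/B2 at 0.28 ± 0.06 and the small family DNA/TcMar-Tc1 at 0.78 ± 0.24. These values depend on the median gene as the base. When each library was set to its median repeat locus, 4 families were higher and 0 lower at 10 min. At 20 min 0 were called (5 at an unadjusted p below 0.05, limma). In the early difference 1 family was then higher, the one labelled Unknown, and 4 were lower. None of the families named in this paragraph passed. SINE/B4 was at 0.17, LTR/ERVK at 0.11, SINE/Alu at 0.16, LTR/ERVL-MaLR at 0.15, SINE/B2 at 0.08 and DNA/TcMar-Tc1 at 0.58.

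LINE/L1, a retrotransposon family still active in the mouse, had the smallest called early difference above 0 among families, at 0.13 ± 0.06 (limma, adjusted p = 0.0478). This call rests on the pooled spread, while the WT libraries of 10 min stood apart for L1, at 67190 and 74010. L1 decreased between 10 and 20 min in both genotypes, by less in del-cIDR (−0.134) than in WT (−0.265). Set to the median repeat locus, its early difference was −0.07 (limma, adjusted p = 0.521). Its loci split by length. The 8349 tested loci of at least 5000 bases, which include near full-length elements, summed to relative levels of 26270 and 25900 and then 15030 and 13710 in del-cIDR, against 18450 and 28940 and then 16440 and 18380 in WT. The del-cIDR libraries overlapped with WT at 10 min and lay below WT at 20 min, and the summed early difference was −0.45. It ranged from −0.78 to −0.13 when 1 library at a time was left out. The 6797 loci of 1000 to below 5000 bases had a summed early difference of 0.40 and the 19968 shorter loci one of 0.47. Of the long loci 83.1% had an early difference below 0, against 33.2% and 27.3% of the other length classes and 34.9% of all tested loci. Within del-cIDR 31.9% of the long loci had a called decrease between 10 and 20 min, beside 2.36% of all tested loci. These calls rested on both 20 min libraries, since over all tested loci the 4426 decreases were 43 without del-cIDR library A of 20 min and 25 without B. The long loci are not separate observations, since copies of L1 can share sequence and how such reads were assigned is not known. None of the long loci was called in the early difference itself. At 40 and 60 min their sum lay 0.07 and 0.10 below WT, and the early difference of KO from WT was 0.37.

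**Figure D5:**
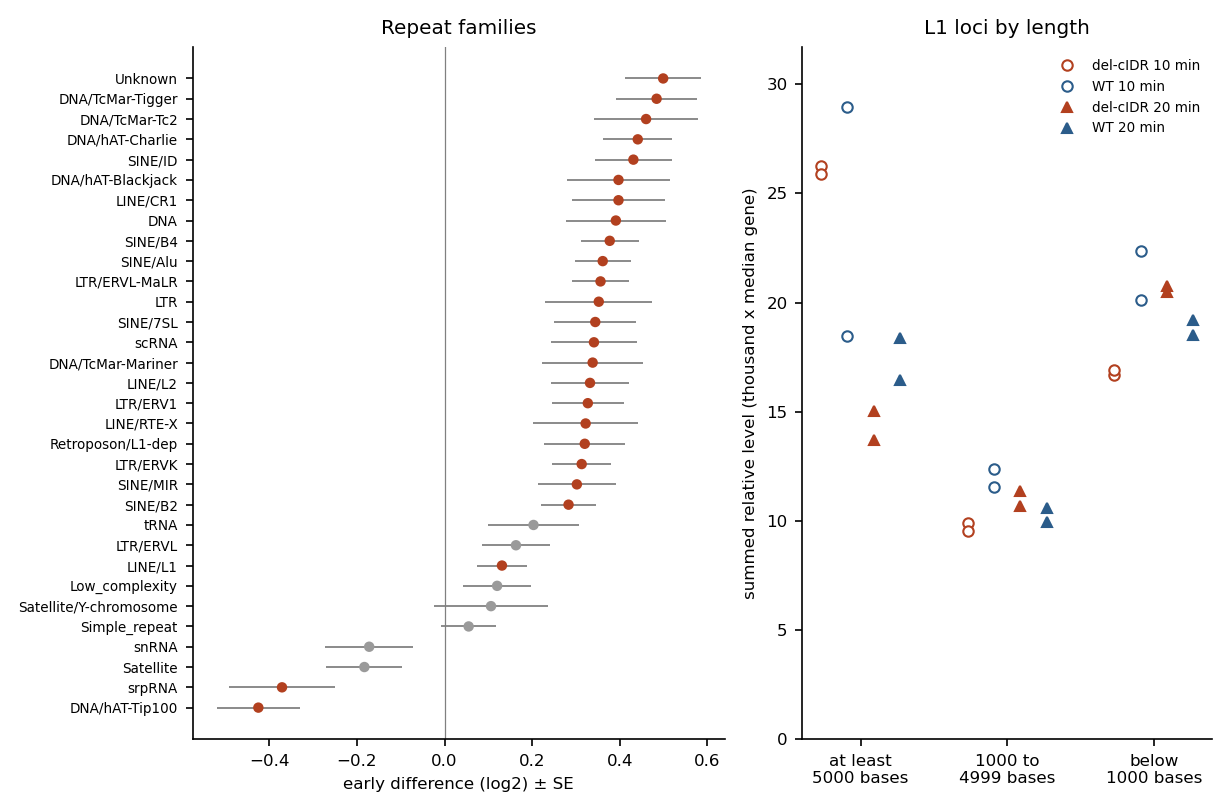
Left, early difference (log2, relative to the median gene) of the more abundant repeat families with its SE from a spread pooled over families, called families in red. Right, summed relative levels of L1 loci by length in each library, divided by 1000, with del-cIDR in red and WT in blue, open circles for 10 min and triangles for 20 min. Long L1 loci are lowest in del-cIDR at 20 min, and shorter ones lowest in del-cIDR at 10 min.

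The families called lower were srpRNA, copies of the RNA of the signal recognition particle, at −0.37 ± 0.12, and the DNA transposon family DNA/hAT-Tip100 at −0.43 ± 0.10. The srpRNA libraries had relative levels of 82.59 and 65.33 and then 54.42 and 55.26 in del-cIDR, against 59.59 and 69.6 and then 57.56 and 67.15 in WT. The genotypes thus overlapped at 10 min, and the srpRNA call rests on the spread pooled over families. The hAT-Tip100 value came from 1 locus. The element at chr17:40153889-40154054 (build GRCm39, as the files give it) held 71.2% of the family's level, with relative levels of 759.5 and 790.9 and then 436.4 and 506.2 in del-cIDR, against 580.2 and 574.9 and then 505.9 and 655.4 in WT. Without it the family's summed early difference was 0.48. Among single loci 0 were called higher and 1 lower (0.00% and 0.000534% of 187424, limma, 21592 at an unadjusted p below 0.05). The called locus is a simple repeat of 35 bases at chr17:40155501-40155535, near that element. It had relative levels of 1520 and 1500 and then 761 and 752 in del-cIDR, against 999 and 990 and then 844 and 1040 in WT, an early difference of −0.91 ± 0.10 (SE, limma, adjusted p = 0.00389). The del-cIDR libraries lay above WT at 10 min and below WT at 20 min. The other 5 tested loci within 60 kb all had early differences below 0, none of them called. Which transcript the reads of these neighbouring loci came from was not determined, so they may not stem from the elements named.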

How the data were processed

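The authors deposited, per the file headers, log2 ratios of each later labelling time to 10 min for every gene and repeat locus. Per the submitters' processing notes, HISAT2, SAMtools, Picard and build GRCm39 were used. The read counter was not given in the sources used here, nor were its annotation, its use of strand and the counting of mates. The columns headed ki were taken as del-cIDR, the remaining genotype of the labels. Each ratio turned out to hold the mean of 2 spike-in-scaled libraries, from which the whole reads of both libraries were recovered for every listed value. This step and the gene test were tested on simulated data, where the gene test found most of the larger but few of the smaller early differences put in, so a gene not called may still differ. Which library carries which replicate number is not known.

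Levels are reads scaled to 11372 spike-in reads, taken as log2(level + 1) and set to the library median over 31118 genes with a value in every deposited column. This understates changes of weakly read genes. limma 3.58.1 in R 4.3.3 was fitted to the 8 libraries with a mean-variance trend and Benjamini-Hochberg adjustment. The analysis plan had foreseen a test on the deposited unit, and the recovered reads allowed replicates. Named genes were the 12 highest and 12 lowest called early differences whose genotypes did not overlap and whose mean level reached 50 (gene models and pseudogenes left out), Alkbh5, and up to 4 called members of each list, or the 2 of highest level where none was called. Members and lists were chosen with earlier results of these data known. Alternatives were the spike-in scale, other centrings, quantile normalization, other filters and pseudocounts, voom, a fit of all 24 libraries, leaving out each library and, chosen after seeing the data, centring on long protein-coding genes and removal of GC trends by a natural spline with 5 degrees of freedom. Gene names and GC came from GENCODE M21 (GRCm38), by gene ID, for 96.5% and 96.4% of tested genes. Versions were Python 3.11.15, numpy 2.4.6, pandas 2.3.3, scipy 1.17.1 and matplotlib 3.10.9.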

Additional observations from a re-analysis of the deposited data

Results flagged for a closer look

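For each gene and repeat below, the change between 10 and 20 min differed between del-cIDR and WT in a test of that difference itself (the limma interaction contrast, adjusted p below 0.05, relative to the median gene). Values are log2 early differences.

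Higher early differences, which need not mean levels above WT, belonged to Zfp551 (1.74), Dsel (1.65), Abhd10 (1.61), Pla2g4c (1.60), Tmem106b (1.59), Hccs (1.56), Mrpl32 (1.54), Sntg1 (1.48), ENSMUSG00000120144 (1.45), Mterf3 (1.40), Zfp800 (1.33) and Zfp386 (1.32). Among list members these were Ccnl1 (1.31), Tug1 (1.21), Clk4 (1.07), Impact (1.01), Ints6 (0.98), Btg1 (0.91), Ythdf3 (0.87), Trp53inp1 (0.84), Slc38a2 (0.82) and Srsf10 (0.82). Smaller values belonged to Ccng1 (0.74), Pcf11 (0.74), Cpsf7 (0.73), Ints13 (0.72), Rbm15 (0.68), Kdm3a (0.68), Clk1 (0.66), Polr2b (0.60), Zfc3h1 (0.59), Kcnq1ot1 (0.58) and Hnrnpa2b1 (0.53).

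Lower early differences belonged to Zfp579 (−2.04), ENSMUSG00000119895 (−1.82), Nckap5l (−1.66), ENSMUSG00002076809 (−1.66), Arhgef19 (−1.59), Hist1h2bq (−1.46), Tmsb10 (−1.30), another gene ID without a name (−1.24), Mvb12a (−1.21), Chd5 (−1.18), Lmtk3 (−1.15), Adgrb2 (−1.11) and Rtl1 (−1.09).

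Among repeat families DNA/TcMar-Tc1 (0.78), SINE/B4 (0.38), SINE/Alu (0.36), LTR/ERVL-MaLR (0.36), LTR/ERVK (0.31), SINE/B2 (0.28) and LINE/L1 (0.13) had a higher early difference, and srpRNA (−0.37) and DNA/hAT-Tip100 (−0.43) a lower one. Set to the median repeat locus, none of these higher families was called, while srpRNA and DNA/hAT-Tip100 still were. The hAT-Tip100 value came from 1 locus, itself not called (limma, adjusted p = 0.261). Without it the family's tested loci had a summed early difference of 0.48. The simple repeat locus on chromosome 17 had a lower early difference as well (−0.91).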

How the results depend on the processing

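No paired analysis was possible because the recovered libraries carry no replicate number. The 346 early calls became 9551 on the spike-in scale, with 9550 higher and 1 lower. They became 779 centred on the median of tested genes, 2197 with a pseudocount of 5 and 780 at a mean level of at least 50. In the fit of all 24 libraries they numbered 3379, with voom 1260 and with GC trends removed 0. Calls at 10 min numbered 988 on the spike-in scale and 4677 with 24 libraries, and those at 20 min 3985 and 2892. Calls of change within del-cIDR numbered 19444 on the spike-in scale, 4403 with 24 libraries and 725 with GC trends removed, and those within WT 11167 on the spike-in scale and 595 with 24 libraries. Called families numbered 5 when centred on the median repeat locus, and called loci 51581 on the spike-in scale. Leaving out 1 library gave 0 to 1575 early gene calls, 396 to 2522 at 10 min, 25 to 1444 at 20 min, 89 to 2452 within del-cIDR, 0 to 4 within WT, 26 to 33 families and 0 to 2515 loci, and early differences of the totals of 0.96 to 1.62 over genes and 1.07 to 1.73 over repeats. On the spike-in scale the sign turned for Lmtk3 (0.008), Adgrb2 (0.052), Rtl1 (0.064), Spred2 (1.11), mt-Rnr2 (1.09) and Rpl5 (1.12). A change of sign between 2 values that both failed the test was not counted as a reversal. Of the other values of named genes and repeats under alternatives, 1178 kept direction and call, 323 lost the call and 37 gained it. The cause of these changes was not tested, except that fewer libraries and more residual degrees of freedom enter by construction when libraries are left out or added. The shallow del-cIDR libraries of 10 min limit precision for weakly read genes.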
